A study of Homo sapiens with 6 samples.

Results

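The beta-catenin destruction complex and the Dishevelled proteins that restrain it were followed at the mRNA level in HCT-116 cells, an established human colorectal carcinoma line. The 10 genes were CTNNB1, APC, AXIN1, GSK3A, GSK3B, CSNK1A1, BTRC, DVL1, DVL2 and DVL3, found by symbol in the gene name column, and each matched 1 of the 27918 genes and loci in the table. Cells had been transfected with 10 nM of a negative control GapmeR (GapNC) or of a GapmeR against the long non-coding RNA CASC9 (GapC9), and poly(A) RNA of 3 libraries per group was sequenced. A GapmeR is an antisense oligonucleotide whose DNA center directs RNase H to the paired RNA. Levels are FPKM, fragments normalized to transcript length and to the mapped fragments of the library. They allow a rough comparison between genes and between libraries, but are not corrected for GC content.

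In resting cells, AXIN1 and APC hold beta-catenin, the product of CTNNB1, while casein kinase 1 alpha (CSNK1A1) and then glycogen synthase kinase 3 (GSK3A, GSK3B) phosphorylate it. The F-box protein beta-TrCP (BTRC) recognizes the phosphorylated form, which is then degraded. When a Wnt ligand engages Frizzled and LRP6, Dishevelled (DVL1, DVL2, DVL3) recruits Axin to the membrane, beta-catenin accumulates and joins TCF factors in the nucleus. Colorectal carcinomas commonly carry mutations of this pathway, and HCT-116 is known for a mutant CTNNB1 allele whose product escapes degradation, beside a normal allele. All of these steps act mainly on protein, which was not measured here.

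The libraries held about 22.9 to 24.2 M (mega) fragments if the most common low value of FPKM times length, among single-transcript entries, is 1 fragment. The targeted RNA had listed values of 0, 0.0108 and 0 FPKM in GapNC and of 0.0528, 0.107 and 0 FPKM in GapC9, below the filter of a mean of 0.1 FPKM. CASC9 thus showed no lower level under the label GapC9, and every direction given here rests on the labels. Of 9 colorectal epithelial markers, 6 passed that filter, while CDX1, VIL1 and CDH17 did not. The epithelial markers summed to 1006 to 1401 FPKM in GapNC and 995 to 1261 FPKM in GapC9. All 5 leukocyte and all 4 endothelial markers were below the filter. Of 3 fibroblast markers found, COL1A1 and COL3A1 passed it and COL1A2 did not, with sums of 4.11 to 5.68 FPKM in GapNC and 4.34 to 5.28 FPKM in GapC9. The libraries differed in how far the deviation of a gene from its mean followed the GC content of its transcripts. Across 10117 genes, Spearman rho was 0.616 in GapNC replicate 1, 0.00964 in GapNC replicate 2 and −0.104 in GapNC replicate 3. In GapC9 the same rho was 0.0287, −0.336 and −0.376 in replicates 1 to 3, so the groups overlapped. GapNC replicate 1 therefore stood apart toward GC-rich transcripts, and values after a correction for GC content are given beside the results they touch.

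The sequences most pertinent to an oligonucleotide experiment are the stretches of each mRNA that most resemble the GapmeR's target. The closest site in the annotated spliced transcripts of GRCh38 (GENCODE) is shown for both GSK3 genes, since GSK3B was the only gene of the 10 past the adjusted threshold and GSK3A is its paralogue, and for the 2 genes with the fewest mismatches. Capitals mark the bases that match the 16-base target, which is not printed.
GSK3B: AAGTGATTGGaaAtgg
GSK3A: AAGTGATTGGcaAtgg
CTNNB1: AAGTGATTGGTaAGtt
DVL3: AAGTGATTcGcCtGCC

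The GSK3B site lies in coding sequence, in exon 2 of 11 at chr3:120002134-120002149 on the minus strand, with 5 mismatches. The GSK3A site lies in coding sequence at chr19:42240043-42240058 on the minus strand, also with 5 mismatches. Both GSK3 mRNAs thus share the same 11 matching bases. The CTNNB1 site has 3 mismatches and lies in a 5′ UTR exon at chr3:41222098-41222113, in a transcript that is not among the 14 listed for CTNNB1 in the table. The DVL3 site has 3 mismatches and lies in coding sequence at chr3:184162659-184162674, in a transcript likewise not listed. The closest sites of the other genes have 4 mismatches (APC, CSNK1A1), 5 (BTRC, DVL1, DVL2) or 6 (AXIN1). Among 17145 genes, 2.32% had a site with at most 3 mismatches and 63.9% had a site with at most 5. A match of letters is a description, and whether the GapmeR acted at any of these sites was not tested.

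All 10 genes were above the filter in the comparison of GapC9 with GapNC. CTNNB1 was by far the most abundant, with a mean over the 6 libraries of 52.3 FPKM, above 97.2% of the genes and loci tested. It was followed by DVL1 (21.8 FPKM), GSK3A (15.0), CSNK1A1 (12.4), DVL3 (12.1), DVL2 (7.34), AXIN1 (6.46), BTRC (6.24), GSK3B (4.44) and APC (3.78). CTNNB1 and DVL1 were the only neighbors in this order whose ranges over the libraries did not overlap. The weakest order was that of AXIN1 and BTRC, in which AXIN1 exceeded BTRC in 2 of 6 libraries. The entries of GSK3B and APC thus sat at the low end and that of CTNNB1 at the high end, as levels per length of transcript. The APC entry also holds transcripts of SRP19.

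**Figure D1:**
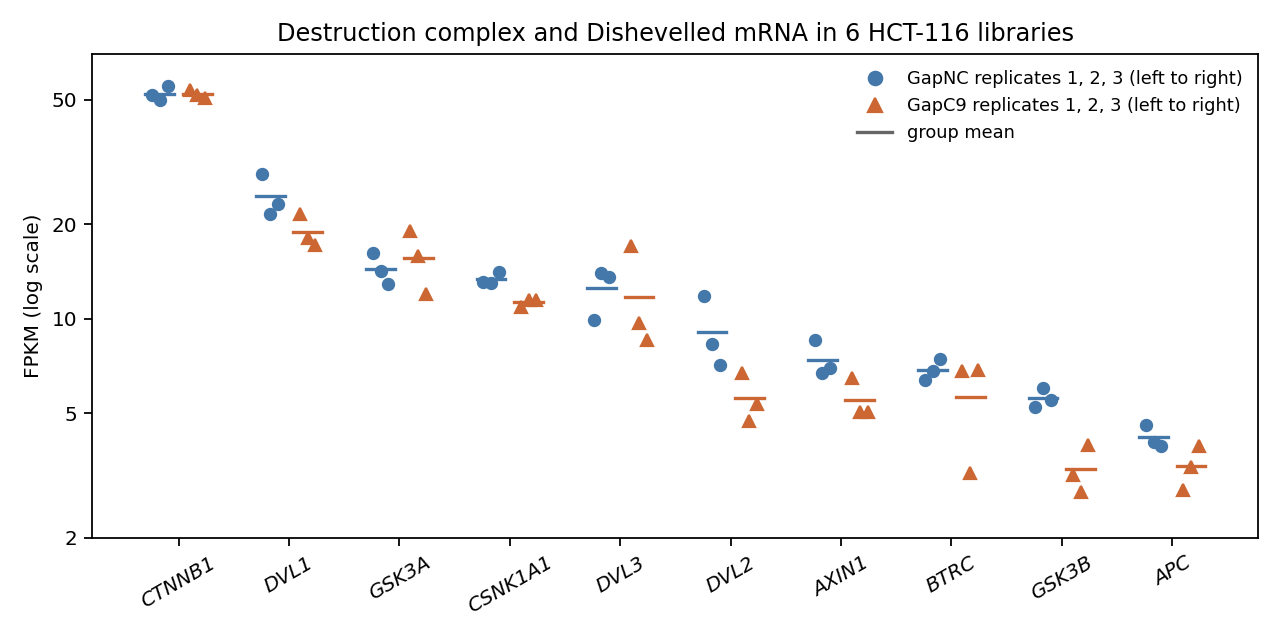
FPKM on a log scale for the 10 genes in each of the 6 libraries, ordered by mean level, with circles for GapNC, triangles for GapC9 and a bar for each group mean. CTNNB1 lies near 52 FPKM in both groups, and GSK3B is lower in all 3 GapC9 libraries than in any GapNC library.

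The comparison of GapC9 with GapNC asked whether the CASC9 GapmeR left the mRNAs of the complex altered. Tests used limma on log2(FPKM + 0.1), a scale that understates changes of genes with low values, with Benjamini-Hochberg adjustment over all 16028 genes and loci tested. At an adjusted p under 0.05, 0 of the 10 genes were higher in GapC9 and 1 was lower, GSK3B, where 1.89% of all genes and loci tested were higher and 5.1% were lower. None of the 10 passed a fold rule with the study's thresholds, read here as group means that differ at least 2-fold either way with an unadjusted limma p under 0.05 (the study used edgeR), which 6.42% of all tested passed (4.32% lower). At the unadjusted p alone, 4 genes were lower (AXIN1, GSK3B, CSNK1A1 and DVL2) and 0 higher, where 16.8% of all tested were lower. In 5 genes, those 4 and DVL1, every GapC9 library was below every GapNC library, as in 21.6% of all tested, and in 0 genes was every GapC9 library higher. Groups that do not overlap, in either direction, made up 34.2% of all tested. The median log2 fold change of the 10 was −0.33, beside −0.076 for all genes and loci tested, and 9 of 10 fitted values were below 0, beside 56.4% of all tested. After the GC correction the median of the 10 was −0.18, beside 0.021 for all 15909 entries with a GC value, and 7 of 10 were below 0, beside 47.9% of all. Nothing in the labels says that replicates came from separate cultures, so the p-values measure only the spread between these libraries. In bulk RNA, fewer cells with a transcript and less of it per cell cannot be told apart.

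CTNNB1, the substrate of the complex, is encoded on the plus strand at chr3:41194741-41260096. It measured 51.7, 49.9 and 55.6 FPKM in GapNC and 53.8, 52.0 and 50.8 FPKM in GapC9. The groups overlapped fully, with GapNC replicate 2 lowest and GapNC replicate 3 highest. The means were 52.4 ± 2.90 and 52.2 ± 1.49 FPKM (SD, n = 3 each). Its log2 fold change was −0.0045 with a 95% interval of −0.21 to 0.20 (limma adjusted p = 0.982), which leaves room for a ratio from 0.865 to 1.15. Its sign depends on the scaling, with a log2 fold change of 0.11 after median scaling and 0.0091 after quantile normalization. The CTNNB1 gene overlaps ULK4 on the opposite strand over 13498 bases, and whether the counting used strand is not given in the sources used here.

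Of the scaffolds, AXIN1, the limiting platform of the complex in many cells, is encoded on the minus strand at chr16:287440-352673. AXIN1 measured 8.53, 6.73 and 6.95 FPKM in GapNC and 6.46, 5.05 and 5.03 FPKM in GapC9. All 3 GapC9 libraries were lower, and GapNC replicate 1 was the highest of the 6. AXIN1 had a log2 fold change of −0.42 (SE 0.16), with an unadjusted p of 0.0361 and an adjusted p of 0.163 by limma, so it did not pass. AXIN1 transcripts are GC-rich (64.5%), and after the GC correction the log2 fold change was −0.077 (limma adjusted p = 0.591). Without GapNC replicate 1 and with no GC correction it was −0.32.

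APC, the tumor suppressor scaffold that is mutated in most colorectal carcinomas, shares its entry in the table with 4 other names, AC008575.1, AC008575.2, SRP19 and ZRSR1, since the transcript assembly joined neighboring genes. Of 23 transcripts listed for the entry, 9 are annotated to APC and 12 to SRP19, which encodes a subunit of the signal recognition particle. The entry measured 4.59, 4.05 and 3.91 FPKM in GapNC and 2.85, 3.36 and 3.92 FPKM in GapC9. GapC9 replicate 3 reached the GapNC range, so the groups overlapped. Its fitted log2 fold change was −0.31, with an interval of −0.68 to 0.06 (limma adjusted p = 0.258), and how much of it belongs to APC itself was not tested.

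Among the kinases, GSK3B was the only gene of the 10 that changed past the adjusted threshold. It is encoded on the minus strand at chr3:119821323-120094417 and stands alone in its entry, with 4 transcripts listed. GSK3B measured 5.22, 6.03 and 5.49 FPKM in GapNC and 3.17, 2.80 and 3.96 FPKM in GapC9. The highest GapC9 library, replicate 3, was below the lowest GapNC library, replicate 1. The means were 5.58 ± 0.410 and 3.31 ± 0.590 FPKM (SD, n = 3 each). The log2 fold change was −0.75 (SE 0.16), with a 95% interval of −1.13 to −0.37 and an adjusted p of 0.0467 by limma. GSK3B in GapC9 was thus at 59.3% of its GapNC level. Its transcripts are not GC-rich (45.3%), and after the GC correction the log2 fold change was −0.74 (limma adjusted p = 0.0226). The call was close to the threshold. It was lost whichever of the 6 libraries was left out, with log2 fold changes of −0.88 to −0.64 and adjusted p-values of 0.0761 to 0.144, and with median scaling (0.0738) or quantile normalization (0.0776).

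GSK3A, the paralogue of GSK3B that acts on many of the same substrates, shares its entry with AC006486.1 and ERF, the gene of an ETS-domain repressor. Of 12 transcripts listed, 4 are annotated to GSK3A and 7 to ERF. The entry measured 16.2, 14.2 and 13.0 FPKM in GapNC and 19.1, 15.9 and 12.0 FPKM in GapC9. GapC9 held both the highest and the lowest library. The log2 fold change was 0.095, with an interval of −0.38 to 0.57 (limma adjusted p = 0.795), and it was −0.059 without GapC9 replicate 1 and 0.37 after the GC correction (adjusted p = 0.142).

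The GSK3A to GSK3B ratio, which does not move with library scaling, was 3.10, 2.35 and 2.36 in GapNC. In GapC9 it was 6.01, 5.67 and 3.03. GapC9 replicates 1 and 2 were far above all GapNC libraries, but GapC9 replicate 3 was below GapNC replicate 1, so the groups overlapped. The mean ratio was 2.61 ± 0.430 in GapNC and 4.90 ± 1.63 in GapC9 (SD, n = 3 each), a mean log2 difference of 0.86 (exact 2-sided permutation p = 0.2, adjusted p = 0.375 over 5 ratios). With 3 libraries against 3, the smallest p this test can give is 0.1. The ratio does move with GC content, and after the GC correction the mean log2 difference was 1.11 (exact permutation, adjusted p = 0.375). The numerator includes the ERF transcripts of the joined entry.

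The promoters of both GSK3 genes are shown because their ratio had the largest mean log2 difference of the 5 ratios, although its groups overlapped. Each is the 250 bases upstream of the start in RefSeq (GRCh38.p14), read 5′ to 3′ on the gene's strand, with GC boxes (GGGCGG on either strand) in capitals.
GSK3B, chr3:120094448-120094697, minus strand: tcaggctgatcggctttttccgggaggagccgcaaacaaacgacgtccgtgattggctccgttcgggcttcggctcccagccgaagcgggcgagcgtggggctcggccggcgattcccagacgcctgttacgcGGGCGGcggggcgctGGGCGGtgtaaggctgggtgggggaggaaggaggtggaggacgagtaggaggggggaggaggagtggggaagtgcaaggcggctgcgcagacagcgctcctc
GSK3A, chr19:42242603-42242852, minus strand: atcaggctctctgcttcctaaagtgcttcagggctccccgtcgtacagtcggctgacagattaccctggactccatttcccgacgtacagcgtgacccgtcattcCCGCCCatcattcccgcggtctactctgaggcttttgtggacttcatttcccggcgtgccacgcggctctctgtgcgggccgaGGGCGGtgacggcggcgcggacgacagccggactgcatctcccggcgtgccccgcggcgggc

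The promoters of GSK3B and GSK3A are GC-rich (68.8% and 65.2%), above the median of 58% over 35116 promoters, and each holds 2 GC boxes. GSK3B also has 1 CCAAT box (CCAAT on either strand) and GSK3A has 0. Of the 10 genes, 9 matched a promoter in the RefSeq table, BTRC being the exception. None of their windows held a TCF/LEF motif (CTTTGAA or CTTTGAT on either strand), which 5.94% of all promoters held. GC boxes were in 42.6% of all promoters, and AXIN1 had 8 of them and DVL1 5. The absence of a motif says only that these letters are not in this window.

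CSNK1A1, the kinase that primes beta-catenin for GSK3, shares its entry with the non-coding AC021078.1, to which 1 of its 12 transcripts is annotated. It measured 13.1, 13.0 and 14.1 FPKM in GapNC and 10.9, 11.5 and 11.5 FPKM in GapC9. The replicates lay close together, and all GapC9 libraries were below all GapNC libraries. CSNK1A1 had a log2 fold change of −0.25 (SE 0.09), a level at 84.0% of GapNC, with an unadjusted p of 0.0328 and an adjusted p of 0.155 by limma. After the GC correction it was −0.29 (limma adjusted p = 0.0537), so the difference was small and did not pass either way.

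BTRC, the substrate receptor of the ubiquitin ligase, measured 6.36, 6.79 and 7.41 FPKM in GapNC and 6.79, 3.21 and 6.88 FPKM in GapC9. The groups overlapped, and GapC9 replicate 2 alone was low. The log2 fold change of −0.36 (interval −1.11 to 0.40, limma adjusted p = 0.507) rested on that library, and without it the value was −0.00098. FBXW11, the second beta-TrCP gene, measured 9.30, 9.48 and 13.5 FPKM in GapNC and 9.74, 14.7 and 14.1 FPKM in GapC9. The BTRC to FBXW11 ratio was 0.684, 0.716 and 0.549 in GapNC and 0.697, 0.218 and 0.488 in GapC9, again lowest in GapC9 replicate 2 (exact permutation p = 0.3).

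The Dishevelled genes encode the cytoplasmic adaptors that relay the Wnt signal to Axin. DVL1, whose entry also names the microRNA gene MIR6808, measured 28.9, 21.6 and 23.3 FPKM in GapNC and 21.5, 18.2 and 17.2 FPKM in GapC9. The groups did not overlap, but the highest GapC9 and the lowest GapNC library were almost equal. The log2 fold change was −0.37, with an unadjusted p of 0.0505 and an adjusted p of 0.193 by limma. DVL1 transcripts have the highest GC content of the 10 genes (66.2%), and the GC-corrected log2 fold change was −0.00097 (limma adjusted p = 0.996).

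DVL2, the least abundant Dishevelled gene, measured 11.8, 8.29 and 7.12 FPKM in GapNC and 6.73, 4.72 and 5.34 FPKM in GapC9. All GapC9 libraries were lower, and GapNC replicate 1 was again the highest of the 6. The log2 fold change was −0.67 (SE 0.23), a level at 61.6% of GapNC, with an unadjusted p of 0.0267 and an adjusted p of 0.139 by limma. Leaving out GapNC replicate 1 gave −0.47, and correcting for GC content gave −0.43 (limma adjusted p = 0.0924).

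DVL3 measured 9.90, 14.0 and 13.6 FPKM in GapNC and 17.1, 9.67 and 8.53 FPKM in GapC9. GapC9 held the highest library, replicate 1, and also the lowest, replicate 3. For DVL3 the log2 fold change was −0.14, with an interval of −0.86 to 0.58 (limma adjusted p = 0.802), and its sign turned after the GC correction (0.11) and without GapC9 replicate 3 (0.056).

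**Figure D2:**
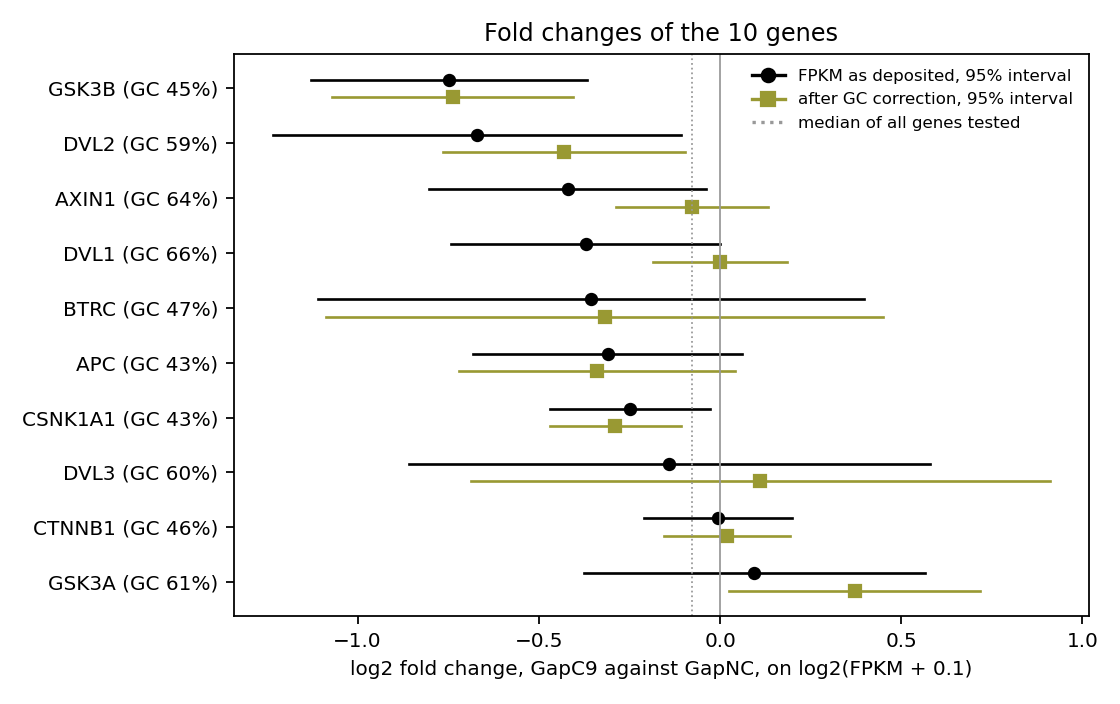
Log2 fold changes of GapC9 against GapNC on log2(FPKM + 0.1) with 95% intervals from limma, as deposited (circles) and after the GC correction (squares), with the transcript GC content beside each gene. CTNNB1, APC, BTRC, GSK3B and CSNK1A1 keep nearly the same value in both, whereas AXIN1 moves from −0.42 to −0.077 and DVL1 from −0.37 to −0.00097.

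Summed over the 3 genes, Dishevelled mRNA was 50.7, 43.9 and 44.0 FPKM in GapNC and 45.4, 32.6 and 31.0 FPKM in GapC9. The means were 46.2 ± 3.88 and 36.3 ± 7.87 FPKM (SD, n = 3 each, exact permutation p = 0.3), and GapC9 replicate 1 lay within the GapNC range. DVL1 made up 53.1% of the sum in GapNC and 52.9% in GapC9, on average. The share of DVL2 was 19.5 ± 3.63% in GapNC and 15.5 ± 1.47% in GapC9 (SD, n = 3 each, exact permutation p = 0.2). Neither the sum nor the shares were corrected for GC content. The sum was highest in GapNC replicate 1, and DVL1, its largest part, had a log2 fold change of −0.00097 after that correction. The DVL1 to DVL2 ratio had a mean log2 difference of 0.31 and the DVL3 to DVL2 ratio of 0.54, each with overlapping groups (exact permutation p = 0.3, adjusted p = 0.375). After the GC correction these differences were 0.43 and 0.54. The APC to AXIN1 ratio differed by 0.11 on the log2 scale (exact permutation p = 0.7) and by −0.26 after the GC correction. Its numerator includes the SRP19 transcripts of the joined APC entry.

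**Figure D3:**
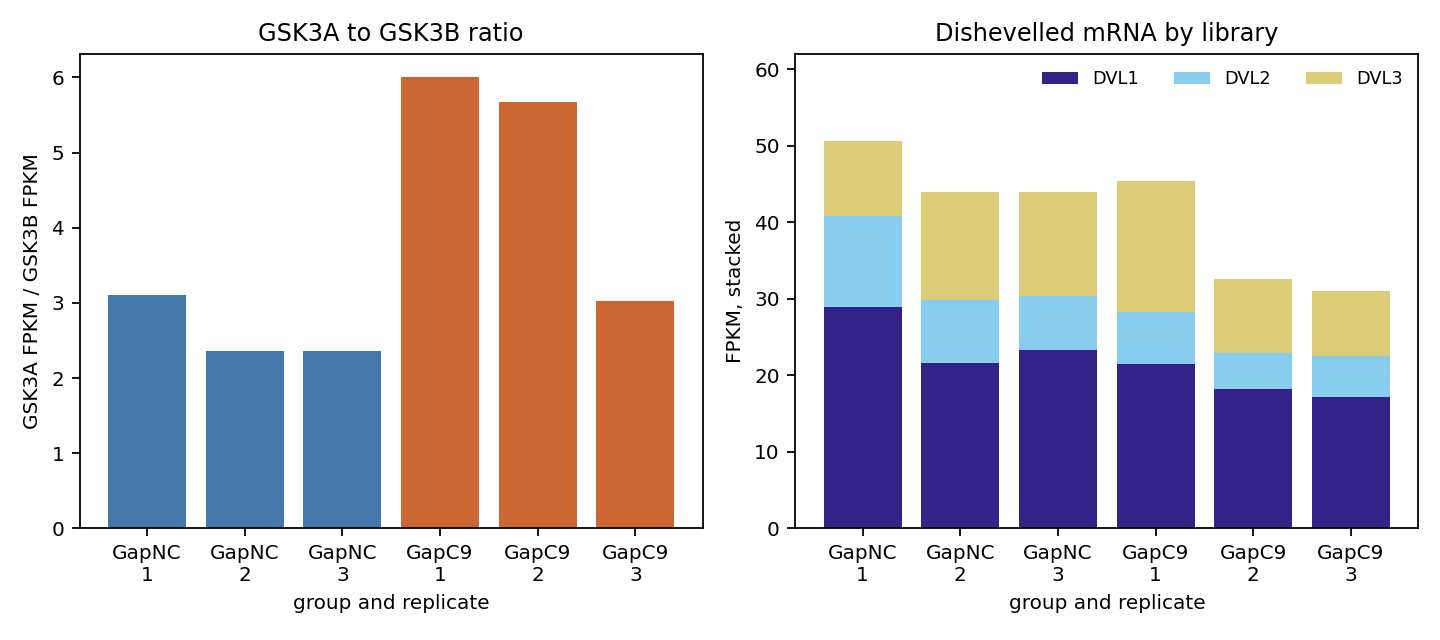
Left, the GSK3A to GSK3B ratio of FPKM in each library; right, FPKM of DVL1, DVL2 and DVL3 stacked by library. The ratio is 6.01 and 5.67 in GapC9 replicates 1 and 2 and 3.03 in replicate 3, beside 3.10 in GapNC replicate 1, and the Dishevelled sum is lowest in GapC9 replicates 2 and 3.

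Upstream of the complex, LRP6, the co-receptor whose tail GSK3 phosphorylates and Axin binds, measured 3.86, 4.92 and 5.21 FPKM in GapNC and 1.86, 1.83 and 1.96 FPKM in GapC9. No GapC9 library came near the GapNC range. LRP6 fell by 1.25 on the log2 scale (SE 0.15, limma adjusted p = 0.0172), a larger fitted change than that of any of the 10 genes, although the difference between LRP6 and GSK3B was not tested. The LRP6 call held after the GC correction (−1.22, limma adjusted p = 0.00544). It was lost with any library but GapNC replicate 1 left out (adjusted p of 0.0588 to 0.0836).

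Paralogues and pathway partners of the 10 proteins, not all of them direct binders, were read from 4 lists. Over these together, 67 genes and loci were tested, of which 1 was higher and 4 lower at the adjusted threshold, or 7.46%, near the 6.99% of all tested. Of 26 destruction complex partners tested (further Axin, casein kinase 1, ligase, phosphatase and tankyrase subunits), 13 were higher and 13 lower in fitted value, with a median of 0.00014 (0.099 after the GC correction), and 1 (3.85%) passed the adjusted threshold, beside 6.99% of all tested. That was CSNK1E, casein kinase 1 epsilon, which phosphorylates Dishevelled, at 16.9, 13.6 and 13.6 FPKM in GapNC and 9.48, 8.59 and 7.82 FPKM in GapC9. CSNK1E fell by 0.76 on the log2 scale (limma adjusted p = 0.0351) and by 0.55 after the GC correction (limma adjusted p = 0.00930), in an entry joined with Z98749.3 and Z98749.2. With the GC correction, 1 of the 26 was called higher and 2 lower, beside 1068 higher and 1244 lower of all 15909 entries.

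Of 18 Dishevelled partners tested, 7 were higher and 11 lower, with a median of −0.23 (0.026 after the GC correction). Without that correction VANGL1 alone passed (5.56%, beside 6.99% of all tested). With it, 1 was called higher and 3 lower, beside 1068 higher and 1244 lower of all 15909 entries. VANGL1, a planar cell polarity protein that binds Dishevelled, was at 9.75, 10.2 and 10.8 FPKM in GapNC and 6.51, 6.31 and 7.21 FPKM in GapC9, and fell by 0.61 on the log2 scale (limma adjusted p = 0.0314) and by 0.51 after the GC correction (limma adjusted p = 0.0238). The VANGL1 call was lost with median scaling (0.0595) and quantile normalization (0.0562).

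Of 18 nuclear partners of beta-catenin tested, 7 were higher and 11 lower, with a median of −0.13 (0.011 after the GC correction). With that correction, 3 were called higher and 2 lower, beside 1068 higher and 1244 lower of all 15909 entries. Without it, 3 passed (16.7%, beside 6.99% of all tested). TCF7, a DNA-binding partner of beta-catenin, was at 1.40, 2.57 and 2.22 FPKM in GapNC and 0.563, 0.620 and 0.844 FPKM in GapC9, and fell by 1.45 on the log2 scale (limma adjusted p = 0.0366). The TCF7 call was lost after the GC correction (−1.22, limma adjusted p = 0.0754), with median scaling (0.0517), with quantile normalization (0.0526), with no filter (0.0687) and with any library but GapNC replicate 1 left out (0.0988 to 0.129). PYGO2, which encodes a Pygopus coactivator and shares its entry with SHC1, was at 26.4, 23.2 and 22.6 FPKM in GapNC and 14.2, 17.0 and 14.0 FPKM in GapC9, and fell by 0.67 on the log2 scale (limma adjusted p = 0.0361). After the GC correction PYGO2 was at −0.46 (limma adjusted p = 0.0433). Its call was lost with median scaling (0.0535), no filter (0.0572), no variance trend (0.0529) and the replicate number as a block (0.0691). BCL9, the adaptor that links Pygopus to beta-catenin, went the other way. It was at 7.73, 7.42 and 6.99 FPKM in GapNC and 10.3, 9.87 and 10.5 FPKM in GapC9, and rose by 0.46 on the log2 scale (limma adjusted p = 0.0454), or by 0.64 after the GC correction (limma adjusted p = 0.00827). With a library left out, the calls of CSNK1E, VANGL1 and BCL9 held only without GapNC replicate 1, and that of PYGO2 held in no case. Over all 17 alternative settings, the call was lost in 10 for PYGO2, 10 for TCF7, 8 for VANGL1, 8 for BCL9 and 7 for CSNK1E.

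For 5 adherens junction catenins and cadherins tested, which bind beta-catenin at the membrane or share that site, the median was −0.33 (−0.017 after the GC correction). Without that correction 0 passed, beside 6.99% of all tested. With it, 1 was called higher and 0 lower, beside 1068 higher and 1244 lower of all 15909 entries. The smallest p without the correction was that of CTNND1 (p120 catenin), in an entry joined with TMX2 and SELENOH. Its log2 fold change was −0.53 (limma adjusted p = 0.147).

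**Figure D4:**
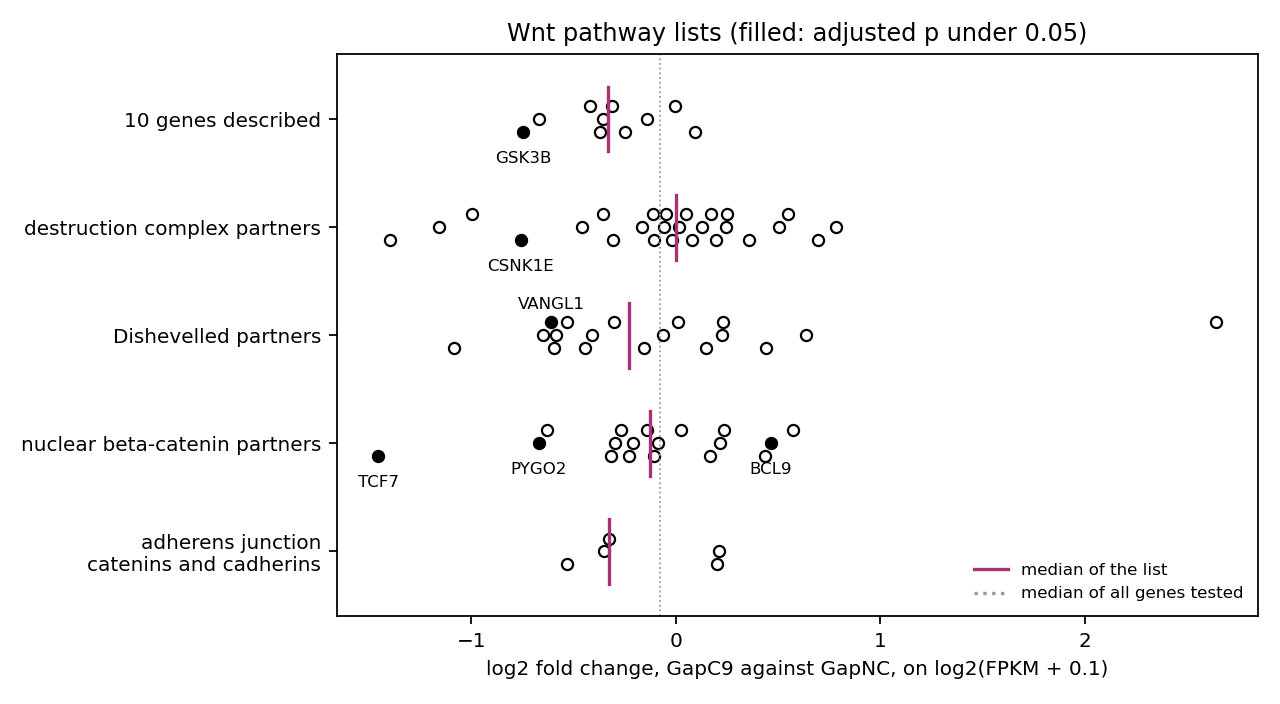
Log2 fold changes of GapC9 against GapNC on log2(FPKM + 0.1) for the 10 genes and the 4 lists of partners, 1 circle for each entry tested, filled and named where the adjusted p is under 0.05, with the list medians as bars. GSK3B is filled among the 10 genes, with CSNK1E, VANGL1, TCF7 and PYGO2 lower and BCL9 higher among the partners.

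Over the 6 libraries, the genes whose level on log2(FPKM + 0.1) was most like that of CTNNB1, among 8912 with at least 1 FPKM in every library, were SFXN2 (Pearson r = 0.9444), HMGB1 (0.9284) and CMTM3 (0.9159). These are the highest of many correlations over 6 points that share libraries, and are given as a description.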

How the data were processed

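The authors aligned reads with HISAT, assembled and quantified transcripts with StringTie and deposited FPKM values in 1 table for all 6 libraries, without counts. The submitters' processing notes name HISAT2 2.0, StringTie 1.3.0, Bowtie 0.12.2 and the mouse build mm8, although the table lists human Ensembl transcripts. Whether reads were counted by strand is not given in the sources used here. The assembly joined neighboring genes in 1063 of 27918 entries. Depth was inferred from the most common value of FPKM times length among single-transcript entries, sought within a fixed low range and taken as 1 fragment. No counting error can be given.

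Values were used as deposited, with 0 value columns unused. The entries with a mean of at least 0.1 FPKM (16028) were fitted with limma 3.58.1 in R 4.3.3 (lmFit, eBayes with trend, no covariate) on log2(FPKM + 0.1), 2-sided, with Benjamini-Hochberg adjustment, and the fit was tested on simulated data. Ratios of FPKM within a library were compared by exact permutation with scipy 1.17.1. GC content came from GENCODE transcripts for 15909 entries (99.3%), and the correction was a lowess curve (span 0.3) per library. Alternatives varied the pseudocount (1 and 0.01), the filter (1 FPKM, none, or dropping genes with a listed 0), the scaling (medians, quantiles, GC correction), the variance model (no trend, robust) and the libraries (a block for replicate number, or leaving out each in turn). The counts over the 4 lists of partners under these settings were added after the data were seen.

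The 10 genes and all lists were chosen with earlier results of these data known. Genes named were the 10, CASC9, LRP6, FBXW11, the members of each list past the adjusted threshold or else the one with the smallest p, and the 3 genes most like CTNNB1. Groups and replicate numbers came from the labels.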

Additional observations from a re-analysis of the deposited data

How the results depend on the processing

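Of the 10 genes, only GSK3B was past the adjusted threshold, and that count of 1 lower became 0 with no filter, median scaling, quantile normalization, no variance trend, the replicate block, and whichever library was left out (range 0 to 0). It remained past the threshold in 6 of 17 alternatives, and its log2 fold change over all 17 ranged from −0.88 to −0.62. No other gene of the 10 passed in any of the 17 alternatives. The sign turned for CTNNB1 with median scaling (0.11), quantile normalization (0.0091) and the GC correction (0.019), and from −0.039 to 0.039 over the libraries left out, for GSK3A over the libraries left out (−0.059 to 0.27), for DVL3 with the GC correction (0.11) and over the libraries left out (−0.44 to 0.056), and for the APC to AXIN1 ratio with the GC correction (−0.26) and over the libraries left out (−0.066 to 0.34).

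Over the 4 lists of partners, 1 higher became 6 with the GC correction and 0 with no filter, no variance trend or the replicate block, and 4 lower became 7 with a filter of 1 FPKM, no gene listed at 0 or the GC correction, 2 with quantile normalization, 1 with no filter or median scaling, and 0 with the replicate block. With a library left out, 0 to 1 were higher and 0 to 4 lower. Of the 4 lower, TCF7 was not among the 7 called lower with the GC correction. The LRP6 call was lost with the replicate block (0.0608) and with any library but GapNC replicate 1 left out, and held in 11 of 17 alternatives.

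Over the whole table, 303 higher and 817 lower became 146 and 346 with no filter, 398 and 500 with median scaling, 347 and 516 with quantile normalization and 1068 and 1244 with the GC correction. With a library left out they were 16 to 240 and 16 to 570. By the fold rule, 336 higher and 693 lower became 116 and 380 with a filter of 1 FPKM, 555 and 983 with no filter, 513 and 439 with median scaling, 453 and 490 with quantile normalization and 472 and 421 with the GC correction, and 331 to 390 and 575 to 809 with a library left out. Median scaling moved the median log2 fold change from −0.076 to 0.034. These shifts were measured and their cause was not tested.

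With the replicate number as a block, 0 genes were called higher and 0 lower at the adjusted p, and 328 higher and 672 lower by the fold rule. After the group mean of each gene was removed, same-numbered libraries of both groups correlated at 0.097, 0.0398 and 0.0243. Differently numbered ones ranged from −0.093 to 0.0578, the highest being GapNC replicate 3 with GapC9 replicate 2. All of these values are small, and they cannot tell whether same-numbered libraries belong together. Levels near the filter of 0.1 FPKM are the least precise, and all 10 genes were well above it.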
